A study of Brassica rapa with 8 samples.

Results

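The genes described here had fewer reads in every seedling library treated with an auxin conjugate than in either untreated library. They were chosen by their own read levels. Normalised read levels (CPM, a gene's count divided by all counts on genes in that library and expressed per 1000000 counts) were compared over 8 RNA-seq libraries of Chinese cabbage, and a gene was kept if it had at least 20 counts in both controls and if its highest CPM among the 6 treated libraries was at most 0.67 times the lower of the 2 control values. Genes that the study names in its own auxin figures were set aside, although none of them met the limit. This left 84 genes, or 0.363% of the 23120 genes with the count minimum and a small part of the 46250 genes listed. The same limit in mirror image, with the lowest treated library above the higher control by the same factor, was met by 331 genes or 1.43%. Both numbers describe the selection and carry no test.

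The seedlings were *B. rapa* L. ssp. pekinensis cv. Cantonner Witkrop, placed on agar plates at an age of 1 day and sampled whole. The 3 treated groups received 0.01 mM IAA-Ala, IPA-Ala or IBA-Ala, the alanine conjugates of indole-3-acetic, indole-3-propionic and indole-3-butyric acid. The control group grew on agar without hormone, and all groups stood at 22 °C under continuous light. The treatment protocol gives a further 24 h of incubation, whereas the sample titles give 3 h, so the time of exposure is not settled here. Each group had 2 biological replicates, and RNA was taken from whole seedlings and not from single organs.

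Auxins direct cell division, cell elongation and root growth. Plants hold part of their auxin as amide conjugates with amino acids, from which amidohydrolases can free the acid. Free IAA is bound by the TIR1/AFB receptors together with Aux/IAA repressors, the repressors are degraded, and auxin response factors then alter transcription of their target genes, among them the *Aux/IAA*, *SAUR* and *GH3* families. The acids in the conjugates differ in the length of the carbon chain on the indole ring, which is shortest in IAA and longest in IBA.

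The tables give each gene as an identifier of the Chiifu annotation, in which BraA02 marks chromosome A02. Apart from the auxin genes of the study's figures, no source used here pairs these identifiers with names, and 0 of them were found in the RefSeq gene table, so the lowered genes are described by their levels and not by their function. For the same reason the labelled tissue could not be checked against marker genes. The libraries held between 16616214 and 19521990 counts on genes, and 3 counts, taken as the limit that a count of 0 allows, correspond to 0.154 to 0.181 CPM. The lowered genes together took up 0.204% and 0.17% of these counts in the controls, against 0.0602% and 0.0799% with IAA-Ala, 0.0786% and 0.0762% with IPA-Ala and 0.0516% and 0.0758% with IBA-Ala. In whole seedlings, fewer cells that express a gene and less RNA of it per cell cannot be told apart.

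Over the 84 genes, the mean of the 6 treated libraries lay between 0.0684% and 59.3% of the control mean, with a median of 38.5%. A drop to below 25% of control was seen in 11 genes, a drop to between 25% and 50% in 66 genes, and 7 genes kept 50% or more. The typical lowered gene thus had a median of 6.86 and 6.74 CPM in the controls. Its counterpart in the treated libraries was 2.18 and 2.45 CPM with IAA-Ala, 2.97 and 2.87 CPM with IPA-Ala and 2.01 and 2.78 CPM with IBA-Ala. Genes with few reads were common in the selection, since 35 of the 84 (41.7%) had a control mean below 5 CPM, against 22.3% of all genes with the count minimum. A further 41 genes had 5 to 50 CPM in the controls and 8 had more.

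**Figure D1:**
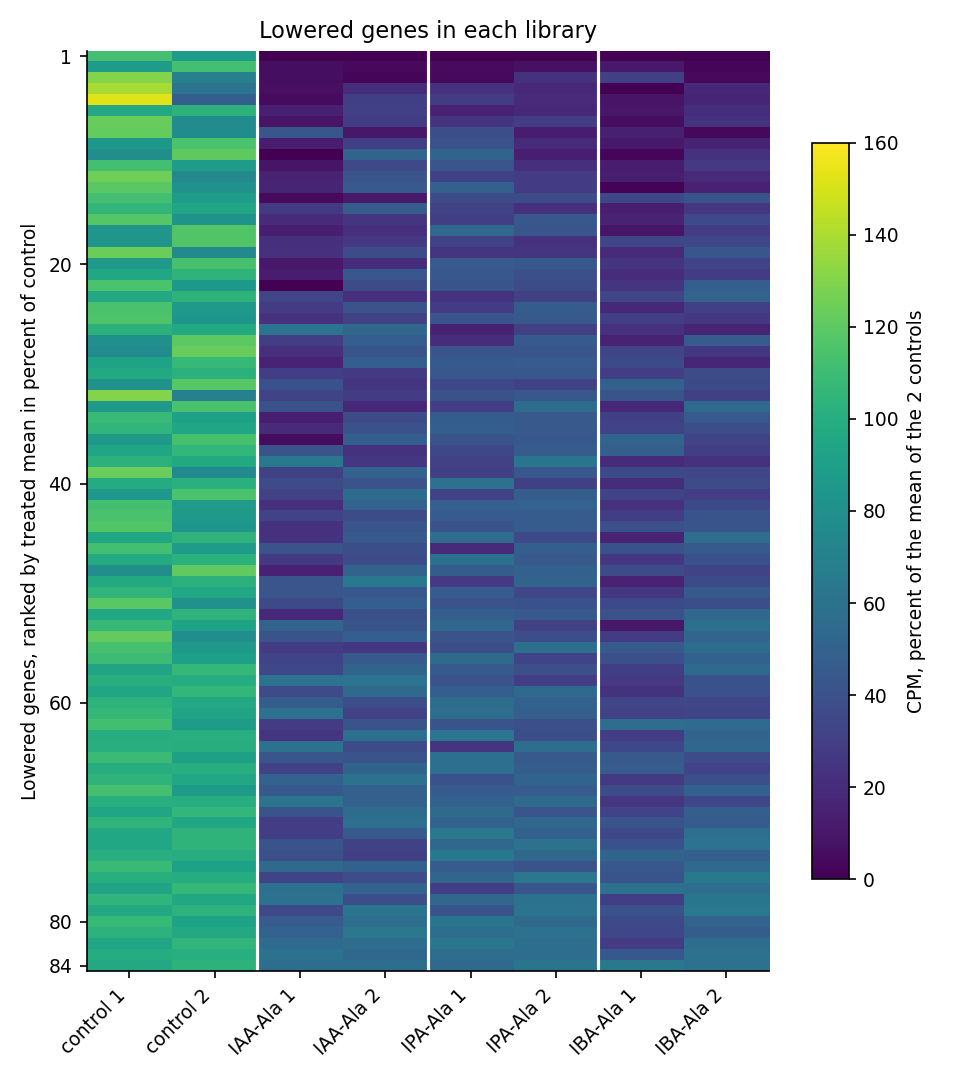
Each row is one of the 84 lowered genes, ranked by its treated mean in percent of control, and each column is a library. The colour gives CPM in percent of the mean of both controls. The rows at the top are close to 0 in the 6 treated columns, and the last row keeps 59.3% of the control mean.

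The deepest drop was that of BraA02g001260.3C on chromosome A02. It had 250 and 185 counts in the controls, or 14.2 and 11.1 CPM. In the treated libraries a single count was found, in the second IAA-Ala replicate, and the other 5 libraries had none. Against the control mean of 12.7 ± 2.2 CPM (SD, n = 2), its level was at least 73.1-fold lower after IPA-Ala and at least 78.4-fold lower after IBA-Ala, with the limit of 3 counts taken per library. After IAA-Ala, the 1 count corresponded to 0.203% of the control level, with an exact 95% interval of 0.00512% to 1.14% that covers counting error only. No other lowered gene had so few reads after treatment, and none was at 0 in all 6 treated libraries.

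Next in order was BraA02g001050.3C, also on chromosome A02, with 2.16 and 2.77 CPM in the controls. Its treated libraries held 1 to 5 counts each, 16 in total, or 0.154 and 0.104 CPM with IAA-Ala, 0.115 and 0.174 CPM with IPA-Ala and 0.268 and 0.0539 CPM with IBA-Ala. These values lie around the limit of 3 counts, so that the conjugates cannot be ranked for this gene. BraA03g026020.3C had 5.53 and 2.95 CPM in the controls, 0.256 and 0.104 CPM with IAA-Ala, 0.173 and 0.984 CPM with IPA-Ala and 1.29 and 0.162 CPM with IBA-Ala. The replicates of IPA-Ala and of IBA-Ala thus differed more from each other than the means of the treatments did. BraA10g022740.3C fell from 13.0 and 5.72 CPM to between 0.0536 CPM, in the first IBA-Ala replicate, and 2.14 CPM, in the first IPA-Ala replicate.

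BraA01g013470.3C had very unequal controls, 51.6 and 16.1 CPM. Its treated values were 1.64 and 10.1 CPM with IAA-Ala, 9.52 and 6.54 CPM with IPA-Ala and 2.95 and 5.66 CPM with IBA-Ala. The groups did not overlap, but the highest treated library reached 0.623 times the lower control, and the treated mean of 17.9% of control rests in part on the first control library. BraA10g022740.3C and BraA01g013470.3C were the lowered genes with the highest ratio of one control to the other. In BraA01g017810.3C the controls were close to each other, at 4.50 and 4.81 CPM. Its treated libraries ranged from 0.482 CPM after IBA-Ala to 1.41 CPM after IAA-Ala, and the treated mean was 18.4% of control.

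A large number of reads stood behind the drop of BraA08g035120.3C, which had 2761 and 1631 counts in the controls, or 157 and 98.2 CPM. Its levels were 11 and 35.8 CPM with IAA-Ala, 31.2 and 37.0 CPM with IPA-Ala and 7.18 and 30.2 CPM with IBA-Ala. The treated mean was 19.9% of control, and the first replicates of IAA-Ala and IBA-Ala were well below the other treated libraries. The last of the 8 lowest genes, BraA07g032100.3C, had 5.70 and 3.61 CPM in the controls. The IAA-Ala libraries had 2.0 and 0.469 CPM, those of IPA-Ala 1.79 and 0.579 CPM and those of IBA-Ala 0.643 and 0.162 CPM. Here the second replicate was the lower one in each treatment.

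The remaining genes with many reads in the controls fell less. BraA08g024150.3C had the most, 10007 and 7275 counts or 570 and 438 CPM. It had 226 and 250 CPM with IAA-Ala, 233 and 235 CPM with IPA-Ala and 184 and 250 CPM with IBA-Ala, and its treated mean was 45.5% of the control mean of 504 ± 93.5 CPM (SD, n = 2). BraA03g064230.3C had 124 and 141 CPM in the controls and between 39.4 and 72.6 CPM after treatment, both extremes being IBA-Ala replicates. BraA02g005190.3C had 114 and 89.0 CPM in the controls and between 21.6 and 51.2 CPM after treatment. In these 3 genes the treated means lay between 38.3% and 45.5% of control, close to the median of all lowered genes. CPM are not divided by gene length, so the order of these genes by reads is not an order by transcript number.

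**Figure D2:**
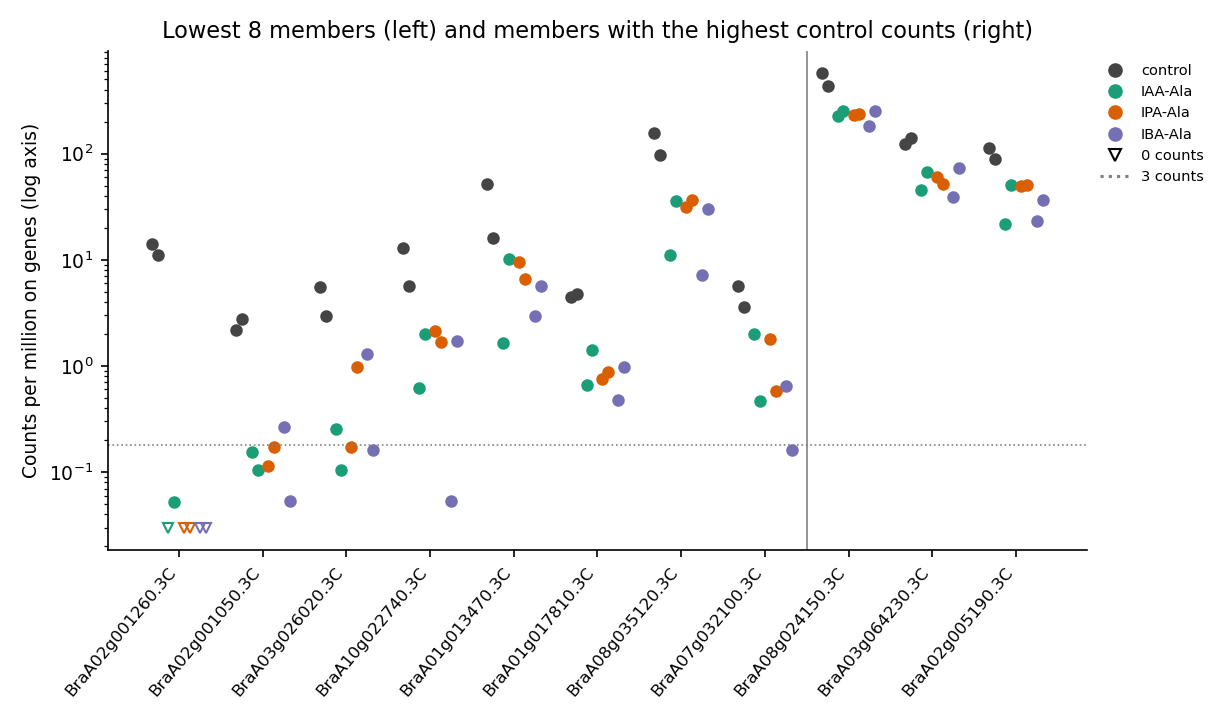
CPM on a log axis for the 8 lowered genes with the deepest drop (left of the line) and the genes with the highest control counts that are not already among them (right). Each filled point is a library, open triangles mark 0 counts, and the dotted line is 3 counts in the smallest library. BraA02g001260.3C has 5 triangles, and BraA08g024150.3C has treated values from 184 to 250 CPM below controls of 438 and 570 CPM.

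The limit of the selection cuts through a continuous range of values. Just inside it were BraA03g020730.3C, at a ratio of 0.669 of the highest treated to the lower control library, and BraA05g027760.3C at 0.668. BraA05g034230.3C and BraA08g018700.3C were just outside, both at 0.67 when rounded. The controls of BraA03g020730.3C had 2.34 and 2.47 CPM and its treated libraries 0.375 to 1.56 CPM. BraA08g018700.3C had 43.2 and 45.7 CPM in the controls and 15.3 to 29.0 CPM after treatment, so the gene left out rests on more reads than the gene kept. The median ratio over the 84 genes was 0.599, and a ratio of 0.5 or less was reached by 14 of them. Leaving out 1 control library raised the number of genes that meet the limit to 394 (without the first control) or 652 (without the second). Leaving out the first IPA-Ala replicate raised it to 162. A library left out can only loosen the limit, so the number could not fall.

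The 84 genes were spread over the chromosomes. Chromosomes A01 and A03 held 12 of them each (14.3%), where A01 had 9.91% and A03 had 14.7% of all genes with the count minimum. Chromosome A09 held 5 lowered genes, 5.95% against a share of 14.2%, and A10 held 9, 10.7% against 7.83%. One further gene was on a sequence without a chromosome. No pair of lowered genes was adjacent in the list of identifiers, and the closest pair was 7 identifiers apart. These counts were not tested.

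None of the 42 genes that the study lists in its auxin figures met the limit, and only 22 of them had the count minimum. They include the *YUC* genes, whose products make IAA from indole-3-pyruvic acid. Also listed are *GH3* genes, some of whose products join auxin to amino acids, and other genes of auxin metabolism and response. All 10 *YUC* genes were below the count minimum in at least 1 control, so the limit could not be applied to them. Of the 11 *GH3* genes 6 could be assessed, of 12 other auxin genes 10, and of a further set of 12 auxin-related genes, which shares some genes with the other sets, 8. In each of these sets 0 genes were lowered, beside 0.363% of all genes with the count minimum. With so small a share a list of 22 genes would seldom hold any, so nothing is read from the 0. The mirrored limit for raised genes was met by 4 of the 22 with the count minimum. That minimum kept out *YDK1* (9 and 17 counts in the controls), *IAA29* (12 and 10) and *YUC3* (33 and 19). In each of them all 6 treated libraries were above both controls. Shares over all genes were not computed for treated libraries wholly above or below both controls. Neither pattern is therefore read as a trait of the auxin genes. All 6 treated libraries were below both controls in 2 of the 22 genes with the count minimum. One was annotated by the study as a C-S lyase (BraA03g054450.3C), with 8.2 and 8.0 CPM in the controls and 1.43 to 5.77 CPM after treatment, a ratio of 0.721. The other was annotated as *UGT74D1* (BraA04g022840.3C), which in *A. thaliana* encodes a glucosyltransferase of auxins, with 122 and 128 CPM in the controls and 83.9 to 120 CPM after treatment, a ratio of 0.983.

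In the fits of each conjugate against the control, all 84 genes had a negative log2 fold change. This follows from the selection, which used the same libraries, and the 3 comparisons share both controls. The median log2 fold change of the 84 genes was −1.47 with IAA-Ala, −1.25 with IPA-Ala and −1.54 with IBA-Ala, beside a median over all genes tested of −0.02, −0.02 and −0.01. At an adjusted p below 0.01 (edgeR's quasi-likelihood test, Benjamini-Hochberg over all genes), 1, 2 and 0 of the lowered genes were called lower. Among all genes tested, 2 genes were called lower with IAA-Ala (0.00747%), 7 with IPA-Ala (0.0261%) and 0 with IBA-Ala (0%). With IBA-Ala the smallest adjusted p of a lowered gene was 0.0101 (edgeR), next to the threshold. The study itself used DESeq2 at the same threshold, counted both directions and called the most genes after IBA-Ala. Nothing is read from the edgeR counts given here, since the contrast chose the lowered genes, and they do not rank the conjugates.

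**Figure D3:**
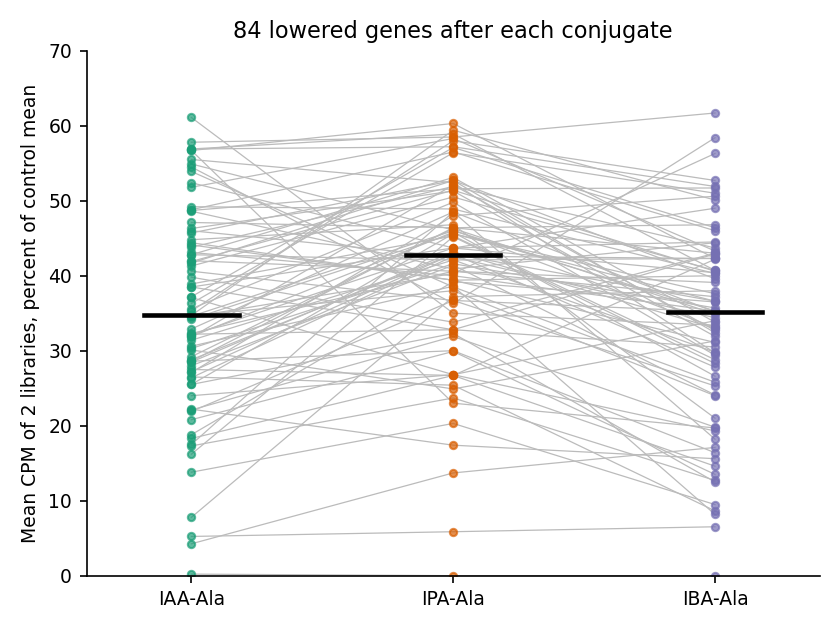
Each point is one lowered gene, as its mean CPM over both replicates of a conjugate in percent of the control mean, and grey lines join the same gene. Black bars are medians over the 84 genes, at 34.7% for IAA-Ala, 42.7% for IPA-Ala and 35.2% for IBA-Ala.

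The conjugates were compared with each other at the same dose in 3 pairs. The selection did not use these differences as such, but it capped every treated library against the controls and so removed genes that one conjugate left high. How far the conjugates could differ was thereby limited in advance, and the shares of small p-values among the lowered genes are partly set by the selection. Each pair shares a group with the others, so the 3 comparisons are not independent. As a share of the control, the 84 genes had a median of 34.7% with IAA-Ala (range 0.205% to 61.1%), 42.7% with IPA-Ala (0% to 60.3%) and 35.2% with IBA-Ala (0% to 61.7%). These shares and the ranks that follow use CPM, scaled by total counts, whereas the fits used TMM scaling. The order of IAA-Ala and IBA-Ala depended on this choice. Their median log2 fold changes against the control were −1.52 and −1.50 with total counts, and −1.47 and −1.54 with TMM. For IBA-Ala minus IAA-Ala, 41.8% of all genes tested were lower with total counts and 48.8% with TMM. IPA-Ala gave the lowest of the 3 means in 9 genes (10.7%), IAA-Ala in 32 and IBA-Ala in 43 (51.2%). Over all genes with the count minimum, IPA-Ala gave the lowest mean in 24.4%, IAA-Ala in 47.9% and IBA-Ala in 27.7%. Conversely, IPA-Ala gave the highest mean in 48 of the lowered genes, IAA-Ala in 21 and IBA-Ala in 15. The share over all genes was not computed for the highest mean, so these counts are not read as a trait of the lowered genes. Both IPA-Ala libraries were above the other 4 treated libraries in 11 lowered genes (13.1%, against 7.82% of all genes with the count minimum). The corresponding number was 2 for IAA-Ala (2.38% against 16.6%) and 3 for IBA-Ala (3.57% against 12.8%). Both libraries were below the other 4 in 6 genes for IBA-Ala (7.14% against 7.78%), in 6 for IAA-Ala (7.14% against 24.4%) and in 1 for IPA-Ala (1.19% against 6.35%), so that IBA-Ala stood at the share of all genes by this measure.

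The comparison of IBA-Ala with IPA-Ala had the most uneven signs. Of 79 lowered genes tested, 66 (83.5%) were lower and 13 higher after IBA-Ala, with a median log2 difference of −0.32, a fold of 0.8. Over all genes tested 49.6% were lower. By single genes, however, 0 of the 79 were called at an adjusted p below 0.01 by edgeR, 8 had an unadjusted p below 0.05 (10.1% against 7.97% of all genes), and the smallest adjusted p was 0.473 (edgeR). Among all genes tested edgeR called 0% at 0.01 and 0% at 0.05. DESeq2 called 0 of 83 lowered genes at 0.01, beside 0.387% of all genes to which it gave an adjusted p. The 83 were not limited to genes with an adjusted p, so these shares have unlike bases. The median was −0.13 and the share of lower genes 61.0% without the first IBA-Ala replicate, and −0.62 and 87.8% without the second.

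For IPA-Ala against IAA-Ala, 81 lowered genes were tested, of which 51 were higher and 30 lower (37%, against 48.4% of all genes) after IPA-Ala. The median log2 difference was 0.14, beside 0.02 over all genes. At an adjusted p below 0.01, edgeR called 0 of them, as it called 0% of all genes. DESeq2 called 1 of 84, beside 3.95% of all genes to which it gave an adjusted p. The 84 were not limited to genes with an adjusted p, so these shares have unlike bases. At 0.05 edgeR called 1, beside 2.34% of all genes. An unadjusted p below 0.05 was found in 5 of the lowered genes (6.17%), against 22.7% of all genes. Without the first IAA-Ala replicate the median turned to −0.06 and 59.8% of the genes were lower after IPA-Ala.

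For IBA-Ala against IAA-Ala, 51 of 76 lowered genes tested were lower after IBA-Ala (67.1%, against 48.8% of all genes) and 25 were higher, with a median log2 difference of −0.17 beside 0.02 over all genes. At an adjusted p below 0.01, edgeR called 0 of the 76 and 0% of all genes. DESeq2 called 0 of 84 lowered genes, beside 7.22% of all genes to which it gave an adjusted p. Here, too, the 84 were not limited to genes with an adjusted p. At 0.05 edgeR called 0 of the lowered genes, beside 6.86% of all genes. An unadjusted p below 0.05 was found in 7 (9.21%), against 27.2% of all genes. The median turned to 0.04 without the second IAA-Ala replicate, when 44.3% were lower, and was 0.00 without the first IBA-Ala replicate. The median standard error of a log2 difference was 0.42 for IPA-Ala against IAA-Ala, 0.45 for IBA-Ala against IAA-Ala and 0.40 for IBA-Ala against IPA-Ala, so that for most of these genes differences of this size between conjugates could not be resolved with 2 libraries per group.

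**Figure D4:**
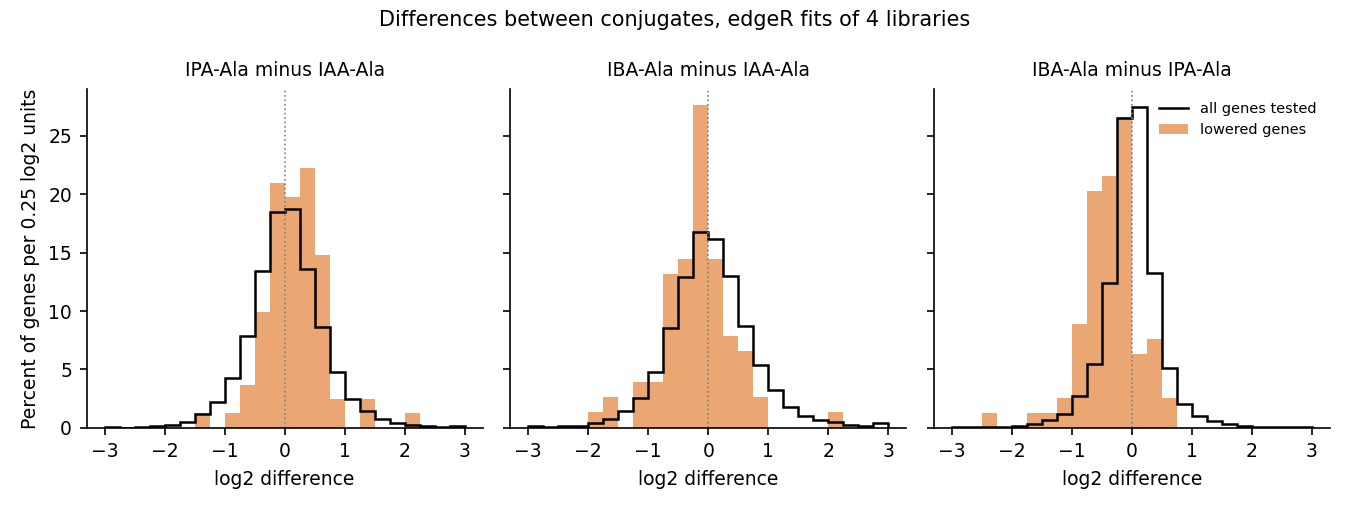
Share of genes in bins of 0.25 on the log2 scale for the 3 comparisons between conjugates, with lowered genes as bars and all genes tested as a line; the end bins hold all values beyond them. In the right panel the bars lie mostly to the left of 0, where 83.5% of the lowered genes and 49.6% of all genes are.

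The lowered gene with the smallest p for IPA-Ala against IAA-Ala was BraA04g015380.3C. It had 50.8 and 71.4 CPM in the controls, 8.25 and 13.2 CPM with IAA-Ala, 32.9 and 26.3 CPM with IPA-Ala and 5.36 and 16.9 CPM with IBA-Ala. Both IPA-Ala libraries were above all libraries of the other conjugates. The log2 difference of IPA-Ala minus IAA-Ala was 1.39 ± 0.26 (SE; 95% interval 0.78 to 2.0; edgeR, adjusted p = 0.0454), short of the threshold of 0.01, and the adjusted p was 8e-04 with DESeq2. In BraA10g027700.3C, too, both IPA-Ala libraries were above those of the other conjugates. Its controls had 8.49 and 11.1 CPM. It had 1.08 and 2.08 CPM with IAA-Ala, 4.50 and 4.34 CPM with IPA-Ala and 2.36 and 3.2 CPM with IBA-Ala. Its log2 difference of IPA-Ala minus IAA-Ala was 1.40 ± 0.42 (SE; edgeR, adjusted p = 0.1), which did not pass.

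BraA01g022270.3C had the smallest p in both comparisons of IBA-Ala with another conjugate. Its libraries held 41.2 and 40.7 CPM in the controls, 25.3 and 20.2 CPM with IAA-Ala, 20.3 and 22.7 CPM with IPA-Ala and 10.4 and 13.9 CPM with IBA-Ala. The IBA-Ala libraries were the lowest, and those of the other conjugates overlapped. The log2 difference was −1.0 ± 0.24 (SE; edgeR, adjusted p = 0.0505) for IBA-Ala minus IAA-Ala and −0.85 ± 0.22 (SE; edgeR, adjusted p = 0.473) for IBA-Ala minus IPA-Ala, neither of which passed.

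BraA06g039240.3C was highest after IAA-Ala, at 9.22 and 9.27 CPM, with 6.18 and 4.40 CPM after IPA-Ala, 4.02 and 6.09 CPM after IBA-Ala and 15.3 and 15 CPM in the controls. Its log2 difference of IBA-Ala minus IAA-Ala was −0.97 ± 0.30 (SE; edgeR, adjusted p = 0.0881). BraA09g003850.3C had 21.6 and 14.6 CPM in the controls, 3.02 and 8.07 CPM with IAA-Ala, 8.83 and 5.15 CPM with IPA-Ala and 0.268 and 2.7 CPM with IBA-Ala. The IBA-Ala libraries were again the lowest, but they differed from each other by far, and the log2 difference of IBA-Ala minus IPA-Ala was −2.26 ± 0.69 (SE; edgeR, adjusted p = 0.509). It was −1.39 without the first IBA-Ala replicate and −4.73 without the second.

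The replicates of a treatment did not agree equally well. The first replicate was the lower one in 63 of the 84 genes after IBA-Ala (75%, against 46.7% of all genes with the count minimum) and in 58 after IAA-Ala (69% against 53.4%). After IPA-Ala it was the lower one in 42 genes (50% against 55.6%), and in the controls in 36 (42.9% against 42.8%). The highest treated value came from the first IAA-Ala replicate in 7 genes and from the first IBA-Ala replicate in 8, compared with 22 for the first and 12 for the second IPA-Ala replicate, 20 for the second IAA-Ala and 15 for the second IBA-Ala replicate. For the library with the highest value, too, the share over all genes was not computed. Over the 6 treated libraries, the median biological coefficient of variation was 0.307 in the 82 lowered genes tested and 0.201 over 27543 genes. These sets were not matched for read level, so the gap is not read as a trait of the lowered genes. A control mean below 5 CPM was found in 41.7% of the 84 genes, against 22.3% of all genes with the count minimum. The part of these differences between replicates in the order of the conjugates was not tested.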

How the data were processed

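Whole-seedling RNA of 8 samples was sequenced, with 2 biological replicates per group. According to the labels and methods, the authors clipped 9 bases from each read, aligned the reads with STAR 2.7.1a and counted them by strand with HTSeq 1.99.2. The deposited values are raw counts per gene without normalization, and the 12 columns of tables deposited as normalized equal them. Reads with several alignments (2432970 to 2881490 per library) were not counted, and reads on no gene or on several genes (16% to 19.4%) were left out here. Depth on genes was 16616214 to 19521990 counts. Replicates differed by more than sampling noise, most so the controls (chi-square per gene 45.6, against 22.4 to 23.1 in the treated groups). The labels name the groups and replicates. The tables of the authors' own comparisons, with fold changes and p-values, were not used.

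CPM were computed from the counts. Conjugates were compared in fits of 4 libraries with edgeR 4.0.16 in R 4.3.3 (filterByExpr with minimum count 10 and minimum total count 15, TMM, glmQLFit and glmQLFTest, Benjamini-Hochberg over all genes tested, threshold 0.01). DESeq2 1.42.0, other scalings and filters, a replicate block and the leaving out of each library served as alternatives. The edgeR fit of IPA-Ala against IAA-Ala was run on simulated counts with large planted changes, and the selection on planted genes. This was a check of the code and does not show how often smaller differences would be found. Standard errors were derived from the log2 difference and the F statistic. Figures were drawn with matplotlib 3.10.9.

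The genes and lists were chosen with earlier results of these data known. Named genes are the 8 with the lowest treated mean relative to control, the 4 with the highest control mean, those at the limit, and the 2 with the smallest p for each pair of conjugates. Auxin genes were read from pictures of the study's figures.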

Additional observations from a re-analysis of the deposited data

How the results depend on the processing

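The number of lowered genes was 84 and became 14 at a limit of 0.5 and 307 at a limit of 0.8. It stayed within 1.5 times of 84 with the other count minimums, scalings and thinning that were run. The list itself was less stable than its size. With TMM scaling 84 genes met the limit, of which 71 were among the 84 described here. With DESeq2 size factors 72 of 84 were shared, and with thinning to the smallest library 73 of 83. With one library left out at a time the number of lowered genes ranged from 95 to 652. Leaving out a library can only loosen the limit, so this number could not fall below 84. The number of lowered genes called at 0.01 between conjugates was 0 in each edgeR comparison without a replicate block, including each fit that left out a library. For IPA-Ala minus IAA-Ala it was 1 with DESeq2 and 1 at a threshold of 0.05, both times BraA04g015380.3C. The adjusted p of this gene was 0.0454 and lay between 8e-04 and 0.387 over the alternatives. With one library left out, the median log2 difference ranged from −0.06 to 0.32 for IPA-Ala minus IAA-Ala, from −0.51 to 0.04 for IBA-Ala minus IAA-Ala and from −0.62 to −0.13 for IBA-Ala minus IPA-Ala. The medians against the control ranged from −1.61 to −1.24 for IAA-Ala, from −1.23 to −1.22 for IPA-Ala and from −1.79 to −1.40 for IBA-Ala. For the 5 genes named for a small p between conjugates, the log2 difference in the pair that named them kept its sign in each alternative run.

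Groups share replicate numbers, but no source says that a number marks a shared plate or day. The deviations of same-numbered samples correlated between −0.156 and 0.156, which with 2 replicates cannot decide the question. In the main fits the samples were taken to share only a number. A replicate block gave 0 called genes for IPA-Ala minus IAA-Ala and for IBA-Ala minus IPA-Ala. For IBA-Ala minus IAA-Ala it gave 2 lowered genes, among 2201 of all genes: BraA09g003850.3C, with an adjusted p of 0.00706 (edgeR), and BraA08g009740.3C, with 0.00595, which is named here after its values were seen. With the block and all 8 libraries in one fit it gave 0 lowered genes (smallest adjusted p 0.086, edgeR) and 0 of all 27948 genes. With the numbers crossed for IPA-Ala minus IAA-Ala, chosen after seeing the data, 1 lowered gene was called among 1248 of all genes. The causes of these changes were not tested. Genes with few reads limit what can be seen, since 35 of the 84 had under 5 CPM in the controls. The 2 samples of a group give few degrees of freedom.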
